A study of Mus musculus with 24 samples.

Results

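The genes described here encode the Polycomb repressive complexes, partners of the MLL methyltransferases, the DNA methyltransferases and the Tet enzymes, followed across sorted fractions of a mouse acute myeloid leukaemia. They were chosen by symbol from general knowledge of these complexes, but with earlier results of these data known. All 41 were found among the 23361 gene rows of the expression table. They comprise 11 genes of PRC2, 15 of PRC1, 2 of the PR-DUB deubiquitinase, 7 MLL partners, 3 DNA methyltransferases and 3 Tet genes.

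PRC2 methylates a lysine of a histone through its catalytic subunit EZH1 or EZH2, and PRC1 places ubiquitin on another histone through a RING protein paired with a PCGF protein. CBX proteins of canonical PRC1 read the PRC2 mark, and MLL complexes place a methyl mark found at active genes, in opposition to Polycomb. DNMT1 copies DNA methylation at replication, DNMT3A and DNMT3B add it to unmethylated sites, and TET enzymes oxidise it.

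All libraries came from primary leukaemia cells of the spleens of (FVB/n X C57/BL/6J) F1 mice with NRASG12V and Mll-AF9, a constitutively active RAS protein and a fusion of MLL with AF9. The cells had been sorted on Mac-1 (a myeloid integrin, gene Itgam), on Kit (a receptor tyrosine kinase of progenitors) and on Sca-1 (a marker of early mouse blood cells). There were 4 libraries of MacLowKit+Sca1+ cells, and 5 each of MacLowKit+Sca1-, MacLowKit-Sca1-, MacHigh and unsorted cells. The prefix MacLow is dropped below. Every group carries both oncogenes, so no library represents normal cells, and the labels used here give neither the promoter of NRASG12V nor the age of the mice. The series title speaks of a population enriched for leukaemia stem cells, so the comparisons ask how these genes differ among the fractions. The labels do not tell whether replicates are different animals, and p-values here reflect only the variation among these libraries, which may be technical.

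The values are FPKM, which are per length and so allow levels to be compared between genes. The FPKM of a library summed to between 445970 and 644381, read numbers are unknown, and the relative depth ran from 0.802 to 1.98. The rows for Nras, Mll1 and Mllt3 (AF9) stood at 0.001 FPKM, the floor of the table, in all 24 libraries, so neither oncogene could be checked. The myeloid marker rows (6 of 6) summed to between 515 and 2100 FPKM in every library. Markers of other cells moved with the groups. Red pulp macrophage markers (6 of 6 rows, none at 0.001 in any library) summed to 1020, 1400, 485 and 775 FPKM in Kit+Sca1+ libraries 1 to 4, to 4.12 to 12.7 in Kit+Sca1- cells, 3.54 to 15.5 in Kit-Sca1- cells, 173 to 374 in MacHigh cells and 137 to 215 in unsorted cells. Dendritic cell markers (6 of 6 rows, none at 0.001) summed to 347 to 644 FPKM in Kit+Sca1+ cells, 13.8 to 78.6 in Kit+Sca1- cells, 13.6 to 48.5 in Kit-Sca1- cells, 91.7 to 143 in MacHigh cells and 62.7 to 97.7 in unsorted cells. NK cell markers (6 of 6 rows, none at 0.001) reached 79.9 FPKM in Kit+Sca1+ cells and 160 in Kit-Sca1- cells, with at most 13.0 in Kit+Sca1- cells and 11.2 in MacHigh cells, and up to 42.2 in unsorted cells. Erythroid markers (6 of 6 rows) summed to at most 64.3 FPKM in a sorted library and 208 to 1250 in unsorted cells. T cell markers (5 of 6 rows) stayed at or below 23.2 FPKM, with Cd3e at 0.001 in 16 of the libraries, and B cell markers (6 of 6 rows) at or below 30.9, with Pax5 at 0.001 in all of them. Genes of cycling cells (10 of 10 rows) summed to 731 to 820 FPKM in Kit+Sca1+ cells, 1160 to 1530 in Kit+Sca1- cells, 884 to 1280 in Kit-Sca1- cells, 437 to 753 in MacHigh cells and 949 to 998 in unsorted cells. The part of other cells and of cycling in the results below was not tested. In such bulk samples, fewer cells of a type and less RNA per cell cannot be told apart.

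The Kit+Sca1+ libraries were uneven among themselves. Libraries 1 and 2 both lay above libraries 3 and 4 in 18 of the 41 genes and both below in 7. In the other 16 the values overlapped. Cbx2, Cbx6, Phc1, Ezh2, Dnmt1 and Dnmt3b were among the 18. The same count over all rows was not made, so it is unknown whether the split is particular to these genes. Libraries 1 and 2 also had higher macrophage, erythroid (55.3 and 64.3 FPKM beside 44.1 and 19.8) and B cell marker sums (30.9 and 25.5 beside 16.7 and 23.3). Their dendritic cell marker sums were lower (347 and 546 beside 644 and 554). Their total FPKM were lower too (469806 and 535878 beside 598274 and 603735). The part of these differences was not tested. Calls on the 41 genes named below that were lost without libraries 1 and 2 are given with their values. Only libraries 3 and 4 then remain in the group, so a call can also be lost through the smaller size. Calls on single genes outside the 41 were not checked in this way.

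Nearly all of the genes differed somewhere among the sorted fractions, but the complexes did not move as units. Of the 41 genes 40 passed the filter on low values (1 FPKM or more in at least 4 libraries), and Tet1 did not. The F test of limma across the 4 sorted groups (on log2(FPKM + 1), Benjamini-Hochberg adjusted p under 0.05) called 38 of the 40, where 83.2% of all 11599 rows tested were called. The exceptions were Ring1 (adjusted p = 0.246) and Cbx8 (adjusted p = 0.566). In 8 genes the highest and lowest sorted means lay 1 or more apart on the log2(FPKM + 1) scale, namely Mtf2, Pcgf5, Cbx2, Cbx6, Phc1, Dnmt1, Dnmt3a and Dnmt3b. All differences below are on that scale with the standard error of the fit, and the added 1 makes them smaller than the true fold for genes of low level.

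**Figure D1:**
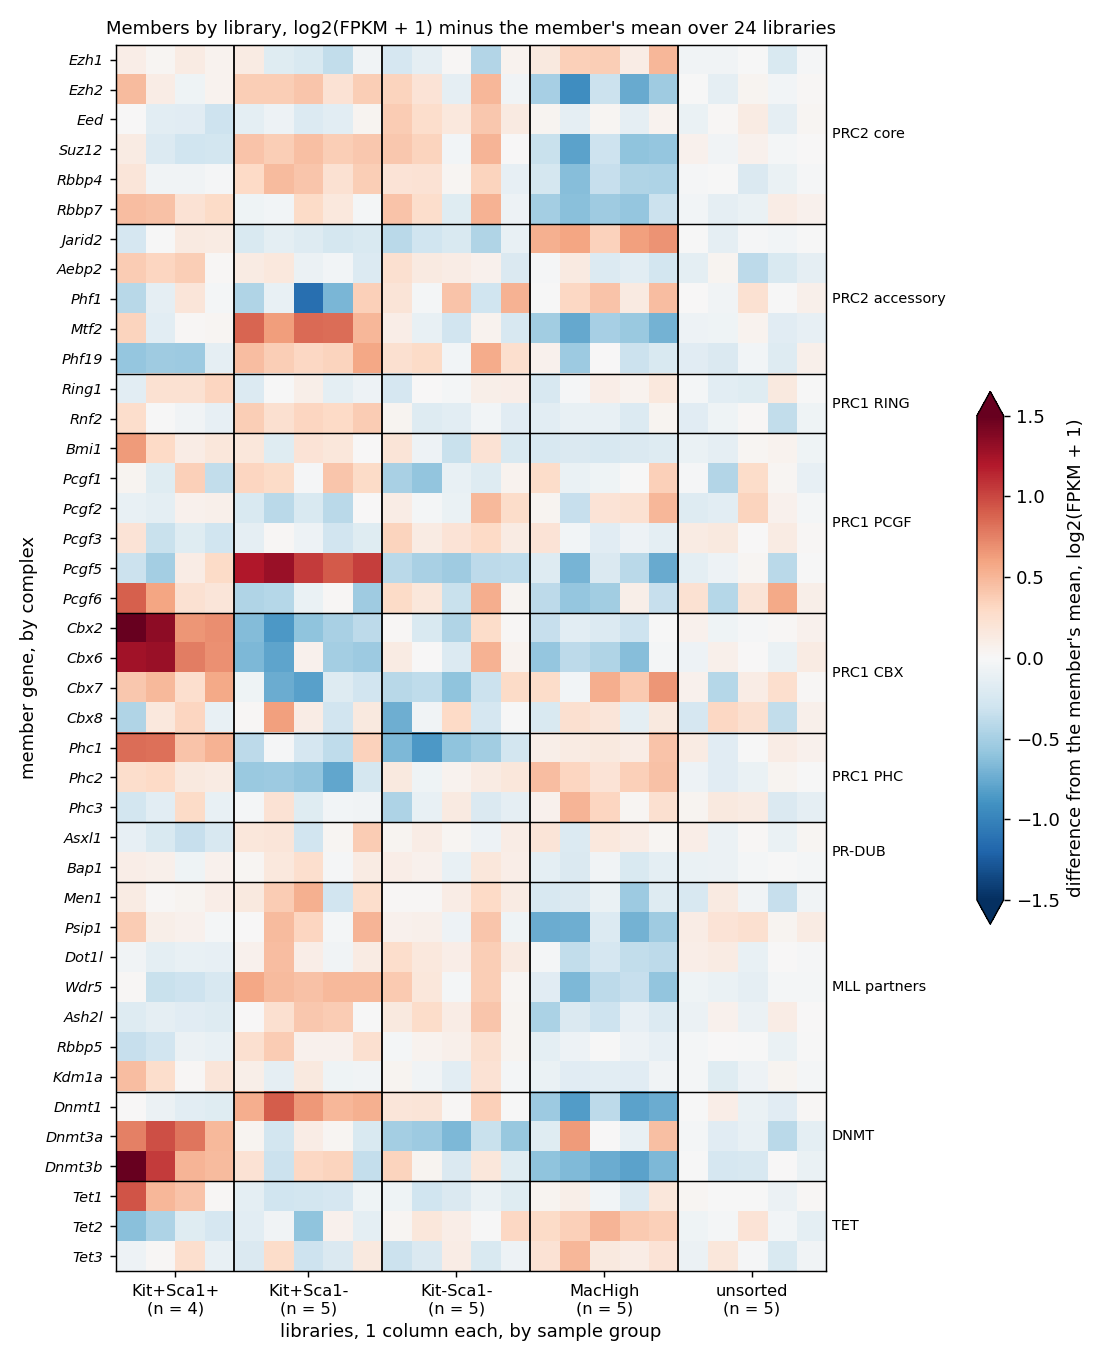
Each row is 1 of the 41 genes, grouped by complex, and each column is a library, grouped by sample group. The colour gives log2(FPKM + 1) minus the gene's mean over the 24 libraries, and Cbx2, Cbx6, Phc1, Dnmt3a and Dnmt3b are red in all 4 Kit+Sca1+ columns, while Pcgf5, Mtf2 and Dnmt1 are red in all 5 Kit+Sca1- columns.

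Against MacHigh, each MacLow fraction had more genes higher than lower. In Kit+Sca1+ 18 of 40 genes were higher than in MacHigh and 3 lower, where 46.0% of all rows were called (23.6% higher and 22.4% lower), and the median difference of the 40 was 0.19, beside 0.03 over all rows. Without Kit+Sca1+ libraries 1 and 2 the counts were 12 higher and 3 lower. In Kit+Sca1- 18 were higher and 10 lower, where 62.8% of all rows were called (32.5% higher and 30.3% lower), with a median of 0.11 beside 0.03. In Kit-Sca1- 18 were higher and 9 lower, where 50.8% of all rows were called (24.5% higher and 26.2% lower), with a median of 0.16 beside -0.02. These comparisons share the MacHigh libraries. As shares of the 40 genes the calls came to 52.5% in Kit+Sca1+, 70.0% in Kit+Sca1- and 67.5% in Kit-Sca1-.

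Between the MacLow fractions the genes split in both directions. Kit+Sca1+ had 12 genes higher and 12 lower than Kit+Sca1-, where 55.2% of all rows were called, and 9 higher and 11 lower than Kit-Sca1-, where 45.2% were called. Kit+Sca1- had 9 genes higher and 8 lower than Kit-Sca1-, where 50.2% of all rows were called. Against unsorted cells Kit+Sca1+ had 10 genes higher and 2 lower, where 33.0% of all rows were called, and MacHigh had 4 higher and 13 lower, where 39.4% were called. These shares, 30.0% to 60.0% of the 40 genes, lay near those of all rows. Without Kit+Sca1+ libraries 1 and 2 the count against unsorted cells fell to 5, with 4 higher and 1 lower.

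The direction of these counts moved with the scaling of the libraries. When every library was scaled to an equal FPKM sum, the median difference of all rows was 0.322 in Kit+Sca1- against MacHigh, and the genes split into 23 higher and 3 lower. In Kit+Sca1+ against MacHigh that median was 0.136, in Kit+Sca1+ against Kit+Sca1- it was -0.209 with 9 higher and 17 lower, and in Kit+Sca1- against Kit-Sca1- it was 0.181 with 18 higher and 2 lower. The equal sums gave 19 higher and 5 lower in Kit-Sca1- against MacHigh, 6 higher and 3 lower in Kit+Sca1+ against unsorted cells, and 1 higher and 15 lower in MacHigh against unsorted cells, where the median was -0.157. Quantile normalization gave a median of 0.142 with 19 higher and 6 lower in Kit+Sca1- against MacHigh, a median of -0.107 in Kit+Sca1+ against Kit+Sca1-, and 9 higher and 5 lower in Kit+Sca1- against Kit-Sca1-. Results on single genes below name a scaling where it ended the call.

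The catalytic and core subunits of PRC2 were mostly lowest in MacHigh. Of the 6 core genes 4 were called higher in Kit+Sca1+ than in MacHigh, where 23.6% of all rows were called higher and 22.4% lower. In Kit+Sca1- 4 were higher and 1 lower (32.5% and 30.3% of all rows). In Kit-Sca1- 5 were higher and 1 lower (24.5% and 26.2%). Here and below, genes other than those 8 and the remaining CBX genes whose values are given for every library were chosen after their values were seen. Ezh2 encodes the catalytic subunit of dividing cells (chromosome 6, 47530274 to 47595270 in GRCm38.p6). It stood at 79.9, 62.1, 54.5 and 59.5 FPKM in Kit+Sca1+ cells, at 74.3, 74.2, 76.7, 66.8 and 74.2 in Kit+Sca1- cells, at 72.3, 66.2, 52.0, 81.3 and 54.9 in Kit-Sca1- cells, at 40.2, 29.5, 45.6, 33.4 and 39.1 in MacHigh cells, and at 57.1, 52.0, 58.7, 55.6 and 58.0 in unsorted cells. Every MacLow library lay above every MacHigh library, and the MacLow groups overlapped each other. The difference from MacHigh was 0.76 ± 0.13 in Kit+Sca1+ (limma, adjusted p = 3.94e-05), 0.96 ± 0.12 in Kit+Sca1- (3.12e-07) and 0.78 ± 0.12 in Kit-Sca1- (1.49e-05). MacHigh also lay 0.59 ± 0.12 below unsorted cells (adjusted p = 0.000639).

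Ezh1, the paralogue with weaker catalytic activity that is kept in non-dividing cells, ran the other way. It averaged 14.3 ± 0.478 FPKM in Kit+Sca1+ cells, 12.2 ± 1.73 in Kit+Sca1- cells, 12.2 ± 1.77 in Kit-Sca1- cells, 16.9 ± 2.0 in MacHigh cells and 12.8 ± 0.828 in unsorted cells. It was lower than in MacHigh by -0.44 ± 0.10 in Kit+Sca1- (adjusted p = 0.000493) and by -0.45 ± 0.10 in Kit-Sca1- (adjusted p = 0.000617), while the difference in Kit+Sca1+ was -0.22 ± 0.10 (adjusted p = 0.0894), and -0.29 with the name prefix as a block (adjusted p = 0.014). At equal FPKM sums the call in Kit+Sca1- was lost (-0.13, adjusted p = 0.357). The ratio of Ezh2 to Ezh1 within a library, a description without a test, was 4.47 ± 0.751 in Kit+Sca1+ cells, 6.05 ± 0.693 in Kit+Sca1- cells, 5.6 ± 1.91 in Kit-Sca1- cells, 2.24 ± 0.403 in MacHigh cells and 4.4 ± 0.307 in unsorted cells. Its highest MacHigh value (2.66) lay below its lowest MacLow value (3.67).

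Suz12, which holds the catalytic core together, followed Ezh2 but separated the Kit+ fractions. Its values were 65.0, 51.6, 48.0 and 49.0 FPKM in Kit+Sca1+ cells, 80.3, 76.9, 81.6, 77.0 and 79.2 in Kit+Sca1- cells, 79.0, 74.9, 57.9, 84.7 and 59.8 in Kit-Sca1- cells, 46.9, 33.7, 47.7, 38.7 and 39.4 in MacHigh cells, and 62.0, 57.1, 62.2, 58.1 and 59.5 in unsorted cells. All 4 Kit+Sca1+ libraries were below all 5 Kit+Sca1- libraries (-0.57 ± 0.11, adjusted p = 0.000159). The differences from MacHigh were 0.93 ± 0.10 in Kit+Sca1- (adjusted p = 7.01e-08), 0.77 ± 0.10 in Kit-Sca1- (3.76e-06) and 0.36 ± 0.11 in Kit+Sca1+ (0.0101). The last of these was lost without Kit+Sca1+ library 1 (0.27, adjusted p = 0.0597) and without libraries 1 and 2 (0.24, adjusted p = 0.172).

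The histone-binding subunits Rbbp4 and Rbbp7, which also serve other chromatin complexes, were lowest in MacHigh too. Rbbp4 averaged 72.4 ± 5.83 FPKM in Kit+Sca1+ cells, 92.0 ± 6.15 in Kit+Sca1- cells, 78.9 ± 9.65 in Kit-Sca1- cells, 53.1 ± 5.23 in MacHigh cells and 68.2 ± 4.23 in unsorted cells. Rbbp7 averaged 124 ± 10.8, 101 ± 11.2 and 112 ± 23.4 FPKM in Kit+Sca1+ cells, Kit+Sca1- and Kit-Sca1-, against 67.6 ± 5.82 in MacHigh cells and 95.4 ± 7.04 in unsorted cells. Each was higher than in MacHigh in all 3 MacLow fractions, by 0.44 to 0.79 for Rbbp4 and by 0.57 to 0.86 for Rbbp7. Eed, the subunit that binds the PRC2 mark, was instead highest in Kit-Sca1-. It averaged 36.6 ± 3.39 FPKM in Kit+Sca1+ cells, 37.8 ± 2.55 in Kit+Sca1- cells, 49.5 ± 4.4 in Kit-Sca1- cells, 39.9 ± 2.65 in MacHigh cells and 40.4 ± 3.04 in unsorted cells. All 5 Kit-Sca1- libraries lay above the other sorted libraries (0.30 ± 0.07 over MacHigh, adjusted p = 0.00182).

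The promoters of 37 of the 41 genes were found in RefSeq (GRCm38.p6). Each ran from 250 bases before to 50 bases after an annotated start. Only the first promoter listed for a gene was used. In Ezh2 and Phf19 its start lies inside the gene rather than at its outer end. They were searched on both strands for TTTCCCGC and TTTGGCGC, forms of the site bound by E2F, a family of transcription factors of the cell cycle. A match was present in 3 of the 37 (8.11%), against 441 of 27025 promoters of the same length (1.63%), and no match overlapped another. Both forms contain a CG, and the median number of CG pairs was higher in the 37 promoters than in the 27025. The shares are therefore not a like comparison, and the difference between them was not tested. All 3 belong to PRC2 genes and are shown as the only matches among the 37. By group means Ezh2 and Suz12 were lowest in MacHigh among the sorted groups, and Phf19 in Kit+Sca1+. The promoters of Rbbp4 and Rbbp7, lowest in MacHigh like Ezh2 and Suz12, held no match. The match is in capitals, and in Phf19 the capitals are the reverse complement of the first form. A match describes these letters only.
Ezh2 promoter, chr6:47594981-47595280, minus strand: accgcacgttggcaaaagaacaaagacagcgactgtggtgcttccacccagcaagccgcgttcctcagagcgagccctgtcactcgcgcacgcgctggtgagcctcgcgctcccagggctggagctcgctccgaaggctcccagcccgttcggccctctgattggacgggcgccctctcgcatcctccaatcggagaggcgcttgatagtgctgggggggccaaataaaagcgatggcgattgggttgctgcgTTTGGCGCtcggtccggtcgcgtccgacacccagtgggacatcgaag
Suz12 promoter, chr11:79992856-79993155, plus strand: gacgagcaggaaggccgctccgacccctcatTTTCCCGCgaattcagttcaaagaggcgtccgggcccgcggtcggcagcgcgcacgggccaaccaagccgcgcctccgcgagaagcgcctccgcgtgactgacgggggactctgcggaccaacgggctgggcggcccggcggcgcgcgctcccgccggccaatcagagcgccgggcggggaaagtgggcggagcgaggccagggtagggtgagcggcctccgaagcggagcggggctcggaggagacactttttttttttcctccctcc
Phf19 promoter, chr2:34913927-34914226, minus strand: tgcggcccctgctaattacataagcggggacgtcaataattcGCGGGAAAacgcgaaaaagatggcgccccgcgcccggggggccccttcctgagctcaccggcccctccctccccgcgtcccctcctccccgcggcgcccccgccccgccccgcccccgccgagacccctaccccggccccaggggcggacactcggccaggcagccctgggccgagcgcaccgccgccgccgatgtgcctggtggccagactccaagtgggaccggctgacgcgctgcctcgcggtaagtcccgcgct

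**Figure D2:**
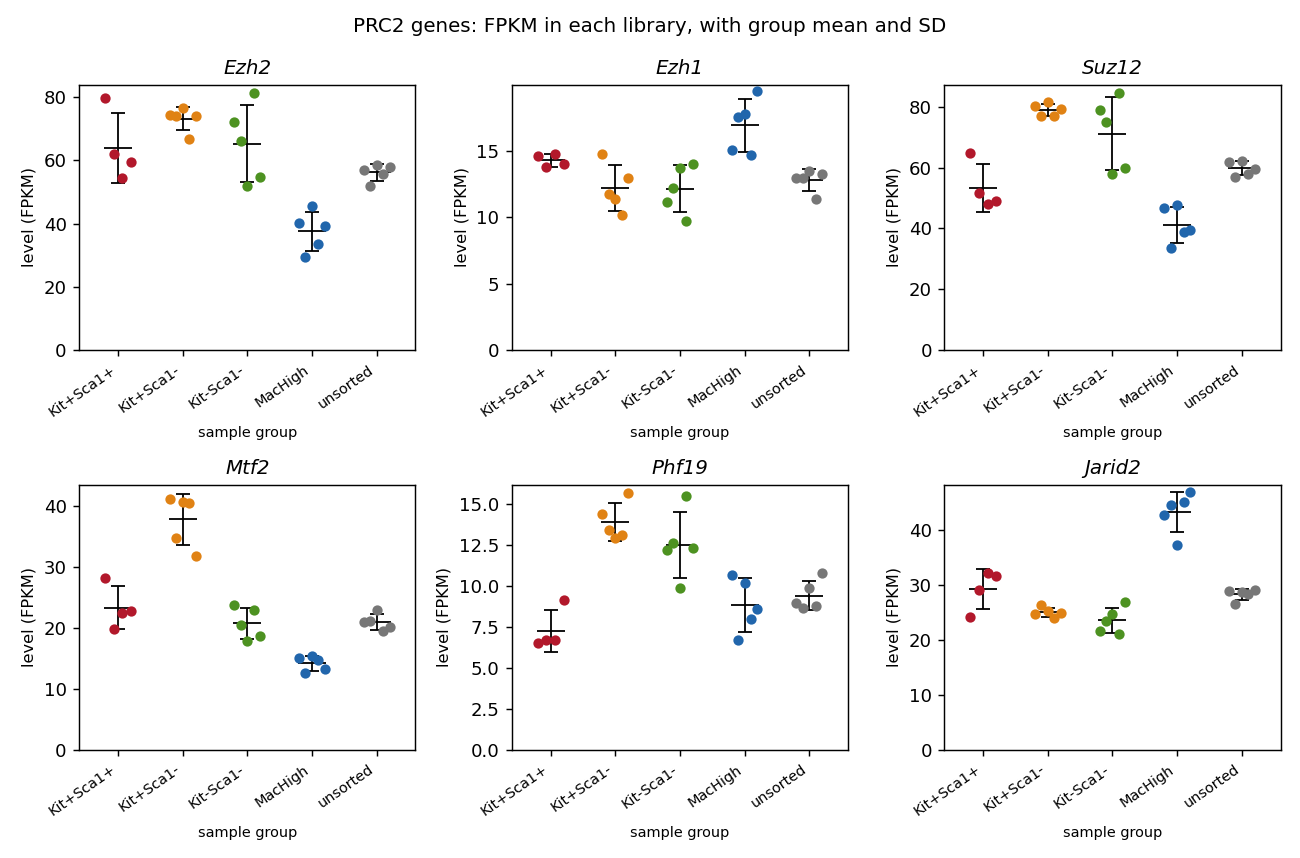
FPKM of 6 PRC2 genes (vertical axes) in the 5 sample groups (horizontal axes), with 1 point per library and the group mean and SD in black. By group means Ezh2 and Suz12 are lowest in MacHigh and Jarid2 and Ezh1 are highest there, while Mtf2 is highest in Kit+Sca1- at 31.8 to 41.2 FPKM.

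Accessory subunits, which set where PRC2 binds, diverged from each other. Mtf2, a Polycomb-like protein that binds unmethylated CpG DNA (chromosome 5, 108065660 to 108109219), was the PRC2 gene with the widest range. Its levels were 28.2, 19.8, 22.5 and 22.7 FPKM in Kit+Sca1+ cells, 41.2, 34.8, 40.7, 40.4 and 31.8 in Kit+Sca1- cells, 23.7, 20.5, 17.9, 22.9 and 18.6 in Kit-Sca1- cells, 15.1, 12.6, 15.4, 14.7 and 13.2 in MacHigh cells, and 20.9, 21.2, 23, 19.5 and 20.2 in unsorted cells. Kit+Sca1- lay wholly above, and MacHigh wholly below, every other library. The difference from MacHigh was 0.67 ± 0.10 in Kit+Sca1+ (adjusted p = 1.2e-05), 1.35 ± 0.10 in Kit+Sca1- (4.86e-11) and 0.51 ± 0.10 in Kit-Sca1- (0.000144). Kit+Sca1+ was 0.68 ± 0.10 below Kit+Sca1- (adjusted p = 6.71e-06), and Kit+Sca1- was 0.84 ± 0.10 above Kit-Sca1- (2.3e-07).

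Of the other Polycomb-like genes, Phf19 shared part of that pattern and Phf1 did not. Phf19 was called above MacHigh in Kit+Sca1- and Kit-Sca1- (0.69 and 0.51 under quantile normalization, limma, adjusted p = 2.58e-05 and 0.000992). Phf19 had 6.51, 6.71, 6.68 and 9.16 FPKM in Kit+Sca1+ cells, 14.4, 13.4, 12.9, 13.1 and 15.7 in Kit+Sca1- cells, 12.2, 12.6, 9.87, 15.5 and 12.3 in Kit-Sca1- cells, 10.7, 6.68, 10.2, 7.97 and 8.57 in MacHigh cells, and 8.64 to 10.8 in unsorted cells. The Kit+Sca1+ values lay below all Kit+Sca1- and Kit-Sca1- values (-0.86 ± 0.12, adjusted p = 4.16e-06, and -0.71 ± 0.12, adjusted p = 7.64e-05) and overlapped MacHigh. Phf1 was widely spread in Kit+Sca1- (6.35 to 19.6 FPKM), and averaged 14.2 ± 2.59 FPKM in Kit+Sca1+ cells, 17.4 ± 4.07 in Kit-Sca1- cells, 18.5 ± 2.62 in MacHigh cells and 15.7 ± 1.32 in unsorted cells. Phf1 was called lower in Kit+Sca1- than in MacHigh, a call lost at equal FPKM sums (-0.37, adjusted p = 0.0808).

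Jarid2, which marks a separate PRC2 form and recruits it to chromatin, was highest in MacHigh. It had 24.2, 29.1, 32.2 and 31.7 FPKM in Kit+Sca1+ cells, 24.7, 26.3, 25.3, 24 and 24.8 in Kit+Sca1- cells, 21.7, 23.5, 24.7, 21.1 and 26.8 in Kit-Sca1- cells, 42.7, 44.5, 37.3, 45.0 and 46.9 in MacHigh cells, and 28.9, 26.5, 28.7, 28.3 and 29.0 in unsorted cells. No library of another group reached the lowest MacHigh value. The differences from MacHigh were -0.55 ± 0.08 in Kit+Sca1+ (adjusted p = 9.14e-06), -0.76 ± 0.08 in Kit+Sca1- (1.35e-08) and -0.85 ± 0.08 in Kit-Sca1- (2.78e-08). Aebp2, the partner of Jarid2 in that form, did not follow it. Aebp2 averaged 49.5 ± 5.7 FPKM in Kit+Sca1+ cells, 40.4 ± 4.3 in Kit+Sca1- cells, 42.8 ± 4.92 in Kit-Sca1- cells, 37.9 ± 4.56 in MacHigh cells and 36.1 ± 4.07 in unsorted cells. It was higher in Kit+Sca1+ than in MacHigh (0.37 ± 0.11, adjusted p = 0.00715), a call that was lost without Kit+Sca1+ libraries 1 and 2 (0.30, adjusted p = 0.108).

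Of the ubiquitin ligases of PRC1, Ring1 overlapped in all groups and Rnf2 was highest in Kit+Sca1-. Ring1 averaged 13.7 ± 2.07 FPKM in Kit+Sca1+ cells, 11.5 ± 1.0 in Kit+Sca1- cells, 12.0 ± 1.22 in Kit-Sca1- cells, 12.3 ± 1.38 in MacHigh cells and 11.7 ± 1.15 in unsorted cells. Its paralogue Rnf2 (RING1B), the main ligase in many cells, had 21.6, 17.8, 17.1 and 16.3 FPKM in Kit+Sca1+ cells, 23.3, 21.3, 22.6, 22.2 and 23.5 in Kit+Sca1- cells, 15.5 to 18.3 in Kit-Sca1- cells, 15.3 to 18.3 in MacHigh cells and 13.6 to 18.1 in unsorted cells. Kit+Sca1- lay above both of Kit-Sca1- and MacHigh without overlap (0.43 ± 0.08, adjusted p = 0.000108, and 0.44 ± 0.08, adjusted p = 4.8e-05). When the prefix of the sample names entered the fit as a block, the F test called Ring1 too (adjusted p = 0.0332).

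The PCGF proteins, which decide the form of PRC1, differed in the fraction where they were highest. Pcgf5, a subunit of a variant PRC1 without CBX proteins (chromosome 19, 36348329 to 36460970), was highest in Kit+Sca1-. It stood at 15.8, 13.7, 21.6 and 24.6 FPKM in Kit+Sca1+ cells, 47.2, 50.4, 42.3, 38.5 and 42.1 in Kit+Sca1- cells, 14.8, 14.0, 13.5, 15.0 and 15.1 in Kit-Sca1- cells, 17.4, 11.9, 17.0, 14.8 and 11.4 in MacHigh cells, and 18.0, 18.8, 20.4, 14.8 and 19.9 in unsorted cells. The lowest Kit+Sca1- value was above the highest value of any other group. Kit+Sca1- exceeded MacHigh by 1.55 ± 0.13 (adjusted p = 1.16e-09) and Kit-Sca1- by 1.54 ± 0.13 (4.34e-09), and Kit+Sca1+ was 1.21 ± 0.14 below Kit+Sca1- (2.41e-07). Of the summed FPKM of the 6 PCGF genes, Pcgf5 made up 30.5% ± 8.28 in Kit+Sca1+ cells, 54.6% ± 3.58 in Kit+Sca1- cells, 26.9% ± 1.88 in Kit-Sca1- cells, 29.8% ± 4.16 in MacHigh cells and 32.3% ± 4.16 in unsorted cells. Genes of cycling cells were also highest in Kit+Sca1-, in which all 10 were above MacHigh but 3 of 10 above Kit-Sca1-.

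Bmi1 (PCGF4), the canonical subunit known for its need in self-renewal of blood stem cells, had its highest values in Kit+Sca1+. It had 20.9, 16.4, 14.2 and 14.9 FPKM in Kit+Sca1+ cells, 14.8, 11.4, 15.2, 14.8 and 13.1 in Kit+Sca1- cells, 15.1, 12.4, 10.2, 15.4 and 11.0 in Kit-Sca1- cells, 10.9 to 11.3 in MacHigh cells, and 12.1, 11.8, 13.4, 13.6 and 12.5 in unsorted cells. Both Kit+ fractions lay above MacHigh without overlap, Kit-Sca1- spanned the MacHigh values, and the MacLow groups overlapped each other. Kit+Sca1+ exceeded MacHigh by 0.53 ± 0.11 (adjusted p = 0.000542), and by 0.37 without libraries 1 and 2 (adjusted p = 0.0313). Pcgf6, a subunit of a variant form with a germ cell gene role, averaged 11.1 ± 2.9 FPKM in Kit+Sca1+ cells, 6.05 ± 1.22 in Kit+Sca1- cells, 8.64 ± 2.1 in Kit-Sca1- cells, 5.82 ± 1.34 in MacHigh cells and 8.62 ± 2.27 in unsorted cells. Its difference of 0.82 ± 0.20 between Kit+Sca1+ and MacHigh (adjusted p = 0.00153) was lost without libraries 1 and 2 (0.56, adjusted p = 0.0732). Pcgf3, the close paralogue of Pcgf5, averaged 9.51 ± 1.89 FPKM in Kit+Sca1+ cells, 9.58 ± 0.834 in Kit+Sca1- cells, 12.5 ± 0.909 in Kit-Sca1- cells, 10.2 ± 1.24 in MacHigh cells and 11.3 ± 0.567 in unsorted cells. Pcgf1, of the BCOR form, averaged 4.77 ± 1.28, 5.99 ± 0.759 and 3.9 ± 0.903 FPKM in Kit+Sca1+ cells, Kit+Sca1- and Kit-Sca1-, 5.26 ± 0.937 in MacHigh cells and 4.67 ± 0.996 in unsorted cells. Pcgf2 (MEL18), the canonical paralogue of Bmi1, was far lower than Bmi1 throughout, at 0.825 to 2.41 FPKM over all libraries.

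Among the PRC1 genes tested, Cbx6 and Cbx2 had the largest differences between Kit+Sca1+ and MacHigh. Cbx2 (chromosome 11, 119023019 to 119031275), a chromodomain protein that compacts chromatin, had 7.89, 6.32, 3.58 and 3.68 FPKM in Kit+Sca1+ cells, 0.852, 0.594, 0.902, 1.06 and 1.2 in Kit+Sca1- cells, 1.93, 1.47, 1.12, 2.52 and 1.94 in Kit-Sca1- cells, 1.28, 1.6, 1.51, 1.34 and 1.89 in MacHigh cells, and 2.03, 1.77, 1.87, 1.94 and 2.04 in unsorted cells. All 4 Kit+Sca1+ values were above all others, and libraries 1 and 2 lay well above libraries 3 and 4. Kit+Sca1+ exceeded MacHigh by 1.28 ± 0.17 (adjusted p = 1.37e-06), Kit+Sca1- by 1.68 ± 0.17 (1.61e-08), Kit-Sca1- by 1.15 ± 0.17 (6.04e-06) and unsorted cells by 1.06 ± 0.17 (2.6e-05). Without libraries 1 and 2 these differences were 0.88 (adjusted p = 0.000118), 1.28 (9.04e-07), 0.75 (0.000598) and 0.66 (0.00273). Kit+Sca1- was 0.39 ± 0.16 below MacHigh (adjusted p = 0.032), a call lost without MacHigh library 2 or 5 (0.0568 and 0.0803), without Kit+Sca1- library 1 or 2 (0.0557 and 0.0875), at equal FPKM sums (0.244) and under quantile normalization (0.792).

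Cbx6 (chromosome 15, 79823898 to 79834333) shared the pattern. It had 13.2, 13.5, 9.09 and 8.48 FPKM in Kit+Sca1+ cells, 2.71, 2.43, 5.21, 3.17 and 3.05 in Kit+Sca1- cells, 5.42, 4.93, 4.15, 7.51 and 5.12 in Kit-Sca1- cells, 2.95, 3.51, 3.32, 2.8 and 4.78 in MacHigh cells, and 4.63, 5.24, 4.95, 4.54 and 5.42 in unsorted cells. The lowest Kit+Sca1+ library was above every library of the other groups. The difference was 1.42 ± 0.17 from MacHigh (adjusted p = 4.52e-07), 1.49 ± 0.17 from Kit+Sca1- (1.38e-07) and 0.90 ± 0.17 from Kit-Sca1- (0.000155), and 1.15, 1.21 and 0.63 without libraries 1 and 2 (adjusted p = 0.000116, 4.42e-05 and 0.0162).

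Of their neighbours on the chromosome, Cbx8 overlapped in all groups, and Cbx7 shared the difference between Kit+Sca1+ and the other MacLow fractions but not the one from MacHigh. Cbx8 lies 5.0 kb from Cbx2, and had 5.33, 8.62, 9.77 and 6.98 FPKM in Kit+Sca1+ cells, 7.74, 12.2, 8.33, 6.07 and 8.58 in Kit+Sca1- cells, 4.18, 7.32, 9.62, 6.23 and 7.58 in Kit-Sca1- cells, 6.34, 9.22, 8.79, 6.82 and 8.58 in MacHigh cells, and 6.22, 9.66, 9.22, 5.67 and 8.12 in unsorted cells. The difference of Kit+Sca1+ from MacHigh was -0.06 ± 0.20 (adjusted p = 0.83). With the prefix block, the F test called Cbx8 (adjusted p = 0.0343), with Kit+Sca1- above Kit-Sca1- by 0.35 (adjusted p = 0.0102) and Kit-Sca1- below MacHigh by -0.27 (0.0422). Cbx7 lies 81.5 kb from Cbx6, and is a regulator of self-renewal of blood stem cells in mice. Its values were 5.03, 5.35, 4.41 and 5.76 FPKM in Kit+Sca1+ cells, 3.34, 1.71, 1.58, 2.96 and 2.72 in Kit+Sca1- cells, 2.4, 2.48, 1.98, 2.64 and 4.53 in Kit-Sca1- cells, 4.5, 3.4, 5.63, 4.97 and 6.2 in MacHigh cells, and 3.74, 2.37, 3.89, 4.4 and 3.61 in unsorted cells. Kit+Sca1+ and MacHigh overlapped (0.06 ± 0.18, adjusted p = 0.806), and both were above Kit+Sca1-, by 0.85 ± 0.18 in Kit+Sca1+ (adjusted p = 0.000433; 0.43 under quantile normalization, adjusted p = 0.033), while Kit+Sca1- was -0.79 ± 0.17 relative to MacHigh (0.000411). Kit+Sca1+ also exceeded Kit-Sca1- by 0.72 ± 0.18 (adjusted p = 0.0029), with overlap, since library 5 of Kit-Sca1- reached 4.53 FPKM.

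As a share of the summed FPKM of the 4 CBX genes, Cbx2 and Cbx6 made up 18.0% ± 5.25 and 37.5% ± 4.12 in Kit+Sca1+ cells, 6.14% ± 1.83 and 21.8% ± 6.9 in Kit+Sca1- cells, 10.6% ± 3.02 and 32.1% ± 6.94 in Kit-Sca1- cells, 8.5% ± 0.448 and 19.3% ± 2.03 in MacHigh cells, and 10.7% ± 1.33 and 27.2% ± 1.35 in unsorted cells. Cbx8 made up 26.7% ± 7.99 in Kit+Sca1+ cells, 55.6% ± 9.87 in Kit+Sca1- cells, 40.9% ± 10.8 in Kit-Sca1- cells, 44.5% ± 4.65 in MacHigh cells and 42.2% ± 6.62 in unsorted cells. So the CBX gene with the most FPKM was Cbx6 in Kit+Sca1+ and Cbx8 in the other groups by their means. Red pulp macrophage and dendritic cell markers were also highest in the 4 Kit+Sca1+ libraries, and their part in the Cbx2 and Cbx6 levels was not tested.

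**Figure D3:**
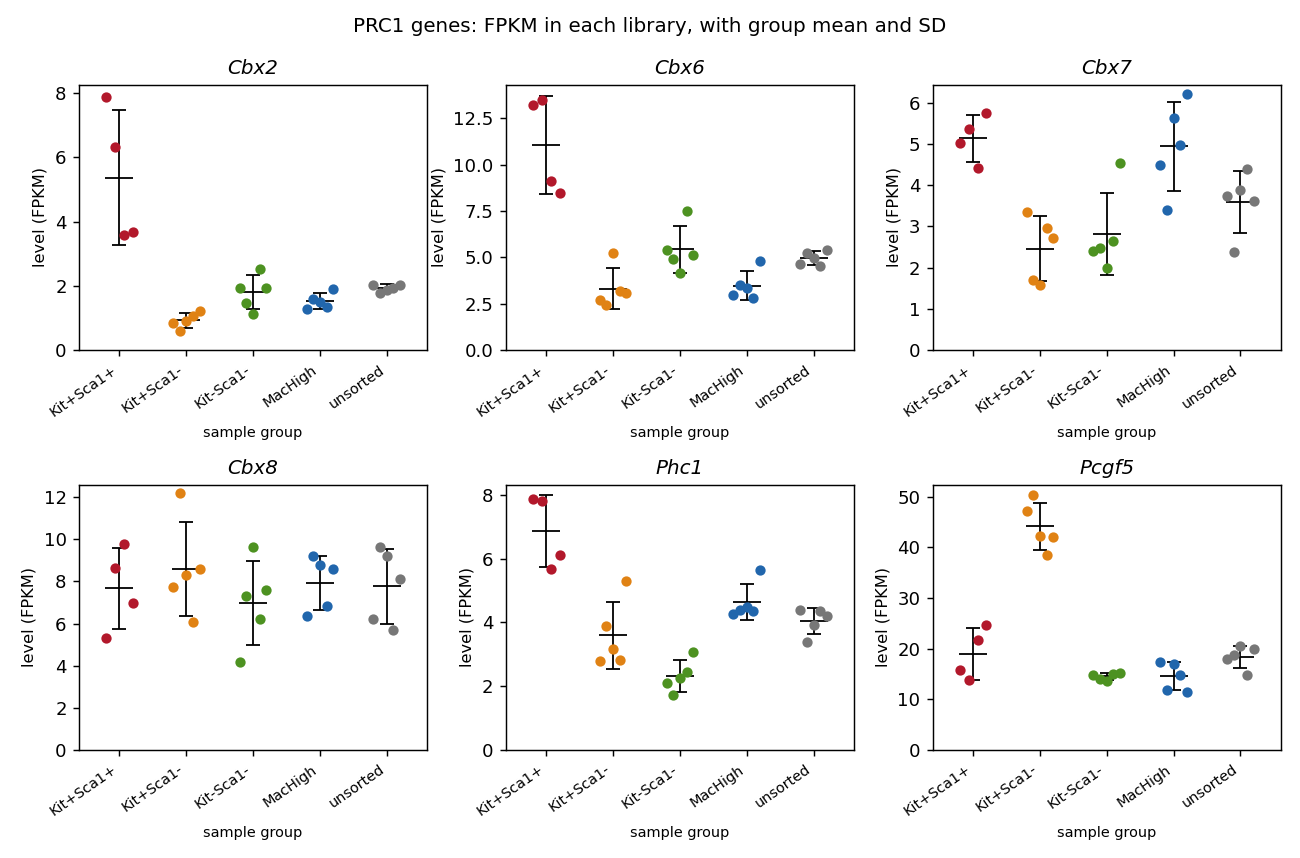
FPKM of 6 PRC1 genes (vertical axes) in the 5 sample groups (horizontal axes), with 1 point per library and the group mean and SD in black. Cbx2, Cbx6 and Phc1 are highest in the 4 Kit+Sca1+ libraries, Pcgf5 in the 5 Kit+Sca1- libraries at 38.5 to 50.4 FPKM, and Cbx8 overlaps in all groups.

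The PHC genes encode the polyhomeotic subunits that link PRC1 complexes to each other. Phc1 (chromosome 6, 122317731 to 122340227) had 7.87, 7.82, 5.68 and 6.13 FPKM in Kit+Sca1+ cells, 2.79, 3.89, 3.18, 2.81 and 5.31 in Kit+Sca1- cells, 2.1, 1.73, 2.26, 2.44 and 3.08 in Kit-Sca1- cells, 4.27, 4.4, 4.49, 4.36 and 5.65 in MacHigh cells, and 4.38, 3.39, 3.93, 4.37 and 4.19 in unsorted cells. The Kit+Sca1+ values were the highest and did not overlap with another group. Kit+Sca1+ exceeded Kit+Sca1- by 0.79 ± 0.14 (adjusted p = 4.87e-05), Kit-Sca1- by 1.25 ± 0.14 (1.8e-07) and MacHigh by 0.48 ± 0.14 (0.00779). Without libraries 1 and 2 these were 0.61 (adjusted p = 0.00603), 1.07 (4.98e-05) and 0.30 (0.192), so the call against MacHigh was lost. Kit-Sca1- was below MacHigh without overlap (-0.77 ± 0.13, adjusted p = 5.44e-05).

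Phc2 and Phc3 leaned towards MacHigh. Phc2, the most abundant of the 3, had 41.9, 43.0, 38.4 and 37.7 FPKM in Kit+Sca1+ cells, 23.2, 23.5, 22.6, 19.8 and 28.6 in Kit+Sca1- cells, 38.4, 33.2, 36.0, 37.8 and 39.2 in Kit-Sca1- cells, 48.3, 43.5, 40, 44.5 and 47.5 in MacHigh cells, and 30.7 to 35.8 in unsorted cells. Kit+Sca1- was the lowest, by 0.90 ± 0.08 under MacHigh (adjusted p = 1.17e-09), and Kit+Sca1+ was 0.76 ± 0.08 above Kit+Sca1- (8.71e-08). Phc3 averaged 7.87 ± 1.58 FPKM in Kit+Sca1+ cells, 8.09 ± 0.939 in Kit+Sca1- cells, 7.29 ± 1.21 in Kit-Sca1- cells, 9.86 ± 1.52 in MacHigh cells and 8.16 ± 0.984 in unsorted cells.

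The subunits of PR-DUB, which removes the ubiquitin that PRC1 places, had small differences. Bap1, its enzyme, averaged 28.7 ± 1.45 FPKM in Kit+Sca1+ cells, 30.1 ± 2.26 in Kit+Sca1- cells, 29.1 ± 2.06 in Kit-Sca1- cells, 24.8 ± 1.28 in MacHigh cells and 26.8 ± 0.755 in unsorted cells. It was higher than in MacHigh by 0.20 ± 0.06 in Kit+Sca1+ (adjusted p = 0.0133), 0.27 ± 0.06 in Kit+Sca1- (0.000543) and 0.22 ± 0.06 in Kit-Sca1- (0.00426), and the first was lost without libraries 1 and 2 (0.16, adjusted p = 0.151). Asxl1, its scaffold and a gene often mutated in human myeloid disease, averaged 24.2 ± 1.61 FPKM in Kit+Sca1+ cells, 30.9 ± 5.19 in Kit+Sca1- cells, 29.5 ± 1.62 in Kit-Sca1- cells, 29.9 ± 3.27 in MacHigh cells and 28.5 ± 1.66 in unsorted cells. It was lower in Kit+Sca1+ than in MacHigh (-0.29 ± 0.10, adjusted p = 0.021), a call lost without MacHigh library 1 (0.0538), without Kit+Sca1+ library 3 (0.0667), at equal FPKM sums (0.209) and under quantile normalization (0.0513).

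Of the 7 MLL partners 3 were called higher in Kit+Sca1+ than in MacHigh, beside 23.6% of all rows. In Kit+Sca1- 6 were called higher (32.5% of all rows) and in Kit-Sca1- 5 (24.5%). None was called lower, beside 22.4%, 30.3% and 26.2% of all rows in these comparisons. Of the 3 in Kit+Sca1+, Men1 and Kdm1a were lost without libraries 1 and 2. Psip1 encodes LEDGF, which with menin tethers MLL to chromatin. It had 28.8, 23.5, 23.1 and 21.5 FPKM in Kit+Sca1+ cells, 22.1, 30.8, 27.7, 21.5 and 31.7 in Kit+Sca1- cells, 23, 23.3, 20.8, 29.6 and 21.0 in Kit-Sca1- cells, 12.7, 12.8, 18.9, 13.1 and 14.9 in MacHigh cells, and 22.7 to 26.1 in unsorted cells. The MacHigh libraries lay below all others, and the MacLow groups overlapped (0.71 ± 0.13, 0.84 ± 0.12 and 0.67 ± 0.12 over MacHigh in Kit+Sca1+, Kit+Sca1- and Kit-Sca1-, adjusted p = 0.000101, 2.81e-06 and 0.000101). Men1 (menin) averaged 25.6 ± 0.943 FPKM in Kit+Sca1+ cells, 28.7 ± 5.97 in Kit+Sca1- cells, 26.4 ± 2.21 in Kit-Sca1- cells, 20.3 ± 2.39 in MacHigh cells and 22.6 ± 3.01 in unsorted cells. Its difference between Kit+Sca1+ and MacHigh (0.33 ± 0.13, adjusted p = 0.0388) was lost when any single Kit+Sca1+ library was left out (adjusted p = 0.0851, 0.0554, 0.0569 and 0.0747 without libraries 1 to 4), without MacHigh library 1, 2 or 4 (0.0529, 0.051 and 0.112), without the filter (0.0503), and without Kit+Sca1+ libraries 1 and 2 (0.32, adjusted p = 0.14). Dot1l, the histone methyltransferase on which MLL fusions depend, averaged 18.5 ± 0.604 FPKM in Kit+Sca1+ cells, 22.3 ± 3.32 in Kit+Sca1- cells, 23.3 ± 1.84 in Kit-Sca1- cells, 16.3 ± 1.84 in MacHigh cells and 20.4 ± 1.36 in unsorted cells. It was above MacHigh in Kit+Sca1- (0.42 ± 0.09, adjusted p = 0.000166) and Kit-Sca1- (0.49 ± 0.09, adjusted p = 6.78e-05).

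The core subunits shared by all MLL complexes were lower in Kit+Sca1+ than in Kit+Sca1-, and also lower than in Kit-Sca1-, where Wdr5 overlapped. Wdr5 had 52.7, 41.2, 41.7 and 44.0 FPKM in Kit+Sca1+ cells, 78.3, 72.8, 70.8, 73.6 and 73.2 in Kit+Sca1- cells, 68.9, 59.0, 51.3, 67.4 and 53.1 in Kit-Sca1- cells, 46.3, 32.3, 39.4, 40.9 and 34.4 in MacHigh cells, and 47.6 to 51.3 in unsorted cells. Kit+Sca1- stood above every other library. Kit+Sca1+ was 0.71 ± 0.10 below Kit+Sca1- (adjusted p = 2.26e-06), and Kit+Sca1- was 0.92 ± 0.09 above MacHigh (1.17e-08). Ash2l averaged 31.2 ± 0.569 FPKM in Kit+Sca1+ cells, 41.2 ± 5.69 in Kit+Sca1- cells, 40.9 ± 4.4 in Kit-Sca1- cells, 29.3 ± 2.8 in MacHigh cells and 35.5 ± 2.24 in unsorted cells, and Kit+Sca1+ was below Kit+Sca1- by -0.38 ± 0.09 (adjusted p = 0.00138). Rbbp5 averaged 15.5 ± 1.48 FPKM in Kit+Sca1+ cells, 20.9 ± 2.12 in Kit+Sca1- cells, 19.1 ± 1.45 in Kit-Sca1- cells, 16.9 ± 0.688 in MacHigh cells and 17.7 ± 0.535 in unsorted cells, with -0.41 ± 0.07 between Kit+Sca1+ and Kit+Sca1- (adjusted p = 7.45e-05). Against Kit-Sca1-, Kit+Sca1+ differed by -0.41 ± 0.10 for Wdr5 (adjusted p = 0.00188), where the groups overlapped, by -0.37 ± 0.09 for Ash2l (0.00239) and by -0.28 ± 0.07 for Rbbp5 (0.00347). The Rbbp5 call was lost without libraries 1 and 2 (-0.17, adjusted p = 0.127). Kdm1a (LSD1), the demethylase that removes the mark of MLL complexes, ran the other way. It averaged 33.8 ± 4.47 FPKM in Kit+Sca1+ cells, 28.5 ± 2.39 in Kit+Sca1- cells, 28.6 ± 2.88 in Kit-Sca1- cells, 25.9 ± 1.07 in MacHigh cells and 27.4 ± 1.62 in unsorted cells, and was 0.36 ± 0.08 above MacHigh in Kit+Sca1+ (adjusted p = 0.00122), which was lost without libraries 1 and 2 (0.23, adjusted p = 0.0667).

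**Figure D4:**
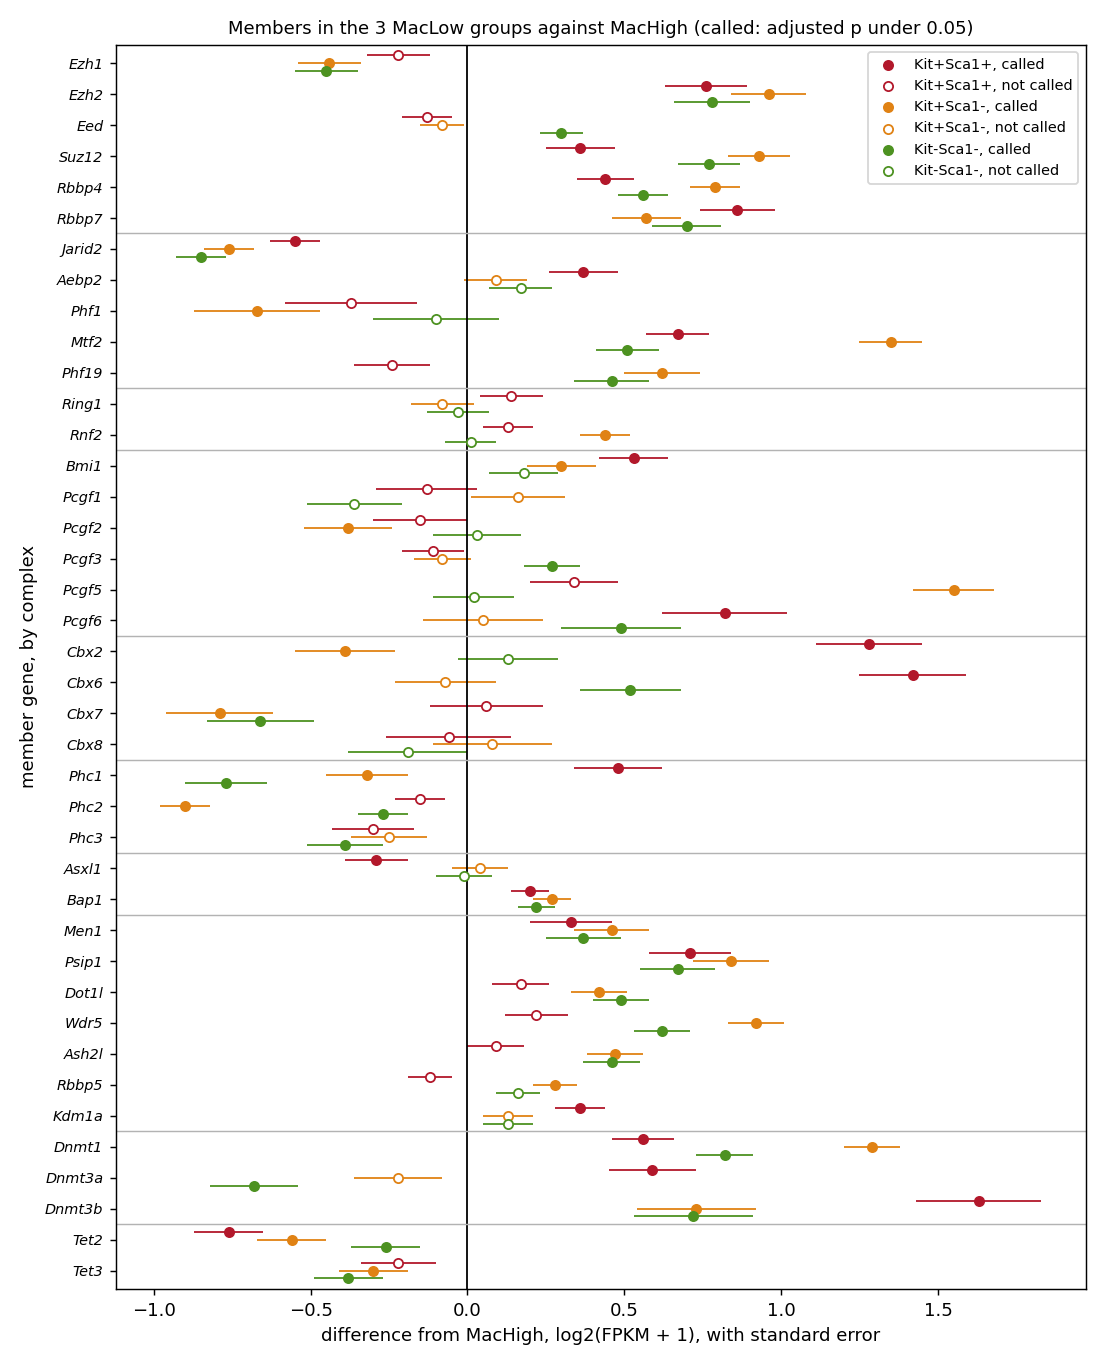
Difference from MacHigh on the log2(FPKM + 1) scale (horizontal axis, with standard error) of the 40 genes tested (vertical axis, by complex) in Kit+Sca1+, Kit+Sca1- and Kit-Sca1-. Filled points passed adjusted p under 0.05, and Jarid2 and Tet2 lie left of 0 in all 3 fractions, Cbx2 lies at 1.28 in Kit+Sca1+ and -0.39 in Kit+Sca1- cells, and Pcgf5 reaches 1.55 in Kit+Sca1-.

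The DNA methyltransferases separated the 2 Kit+ fractions in opposite directions. The maintenance enzyme Dnmt1 (chromosome 9, 20907206 to 20959888), the gene of the 41 with the highest value in any library, had 93.1, 86.6, 82.7 and 81.2 FPKM in Kit+Sca1+ cells, 135, 174, 145, 131 and 134 in Kit+Sca1- cells, 105, 106, 93.6, 119 and 92.3 in Kit-Sca1- cells, 63.2, 51.2, 70.3, 52.5 and 54.6 in MacHigh cells, and 92.1, 99.4, 86.5, 82.3 and 93.8 in unsorted cells. Kit+Sca1- was above and MacHigh below every other library. The difference from MacHigh was 0.56 ± 0.10 in Kit+Sca1+ (adjusted p = 8.36e-05), 1.29 ± 0.09 in Kit+Sca1- (6.86e-11) and 0.82 ± 0.09 in Kit-Sca1- (4.91e-07), and Kit+Sca1+ was 0.73 ± 0.10 below Kit+Sca1- (1.73e-06). The summed genes of cycling cells had the same order of group medians, 750 FPKM in Kit+Sca1+ cells, 1280 in Kit+Sca1- cells, 1080 in Kit-Sca1- cells and 558 in MacHigh cells, and their part was not tested.

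Dnmt3a, which adds new methylation and is a frequent mutation target in human myeloid leukaemia (chromosome 12, 3801559 to 3914443), was highest in Kit+Sca1+. Its values were 16, 18.6, 16.5 and 13.1 FPKM in Kit+Sca1+ cells, 9.37, 7.34, 9.83, 9.25 and 7.59 in Kit+Sca1- cells, 6.06, 5.9, 5.3, 7.0 and 5.81 in Kit-Sca1- cells, 7.84, 14.7, 9.06, 8.31 and 12.7 in MacHigh cells, and 8.87, 7.94, 8.29, 6.63 and 8.12 in unsorted cells. Kit+Sca1+ overlapped with MacHigh, where library 2 reached 14.7, and with no other group, and Kit-Sca1- was below every other sorted library. Kit+Sca1+ exceeded Kit-Sca1- by 1.27 ± 0.14 (adjusted p = 1.8e-07), Kit+Sca1- by 0.81 ± 0.14 (4.68e-05) and MacHigh by 0.59 ± 0.14 (0.00172).

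Dnmt3b, the paralogue of early development (chromosome 2, 153649411 to 153687730), had 16.2, 9.93, 6.53 and 6.35 FPKM in Kit+Sca1+ cells, 5.13, 3.22, 5.54, 5.66 and 3.11 in Kit+Sca1- cells, 5.63, 4.42, 3.53, 4.92 and 3.65 in Kit-Sca1- cells, 2.46, 2.34, 2.15, 2.02 and 2.31 in MacHigh cells, and 4.24, 3.42, 3.48, 4.28 and 3.92 in unsorted cells. Kit+Sca1+ was above and MacHigh below all other libraries, but within Kit+Sca1+ library 1 was 16.2 beside 6.35 in library 4. The differences of Kit+Sca1+ were 1.63 ± 0.20 from MacHigh (adjusted p = 5.09e-07), 0.90 ± 0.20 from Kit+Sca1- (0.000483) and 0.91 ± 0.20 from Kit-Sca1- (0.000653). Without libraries 1 and 2 they were 1.19 (adjusted p = 2.51e-05), 0.46 (0.0424) and 0.47 (0.0443). The ratio of Dnmt3a to Dnmt3b within a library was 1.86 ± 0.647 in Kit+Sca1+ cells, 1.99 ± 0.349 in Kit+Sca1- cells, 1.39 ± 0.197 in Kit-Sca1- cells, 4.65 ± 1.22 in MacHigh cells and 2.08 ± 0.329 in unsorted cells.

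By group means Tet2 and Tet3 were highest in MacHigh, and Tet1 in Kit+Sca1+. Tet1, low in all groups and not tested, had 1.9, 1.12, 1.03 and 0.524 FPKM in Kit+Sca1+ cells, 0.228 to 0.447 in Kit+Sca1- cells, 0.224 to 0.44 in Kit-Sca1- cells, 0.304 to 0.696 in MacHigh cells and 0.419 to 0.538 in unsorted cells. Its 3 highest values were those of Kit+Sca1+ libraries 1 to 3, and library 4 fell within MacHigh. Tet2, a frequent mutation target in human myeloid disease, had 7.01, 7.98, 9.88 and 9.35 FPKM in Kit+Sca1+ cells, 10.1, 10.9, 7.17, 11.9 and 10.2 in Kit+Sca1- cells, 11.6, 12.9, 12.3, 11.3 and 14.4 in Kit-Sca1- cells, 14.1, 14.9, 16.6, 15.3 and 14.8 in MacHigh cells, and 10.8, 11.1, 13.3, 11.0 and 10.2 in unsorted cells. Kit+Sca1+ and Kit+Sca1- lay below MacHigh without overlap (-0.76 ± 0.11, adjusted p = 8.47e-06, and -0.56 ± 0.11, adjusted p = 8.5e-05). At equal FPKM sums the call in Kit+Sca1- was lost (-0.26, adjusted p = 0.0592). Kit+Sca1+ was also below Kit-Sca1- (-0.51 ± 0.11, adjusted p = 0.000908), and by -0.34 without libraries 1 and 2 (adjusted p = 0.0484). Tet3 averaged 17.5 ± 2.22 FPKM in Kit+Sca1+ cells, 16.6 ± 3.26 in Kit+Sca1- cells, 15.6 ± 2.01 in Kit-Sca1- cells, 20.5 ± 2.43 in MacHigh cells and 16.7 ± 1.8 in unsorted cells.

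**Figure D5:**
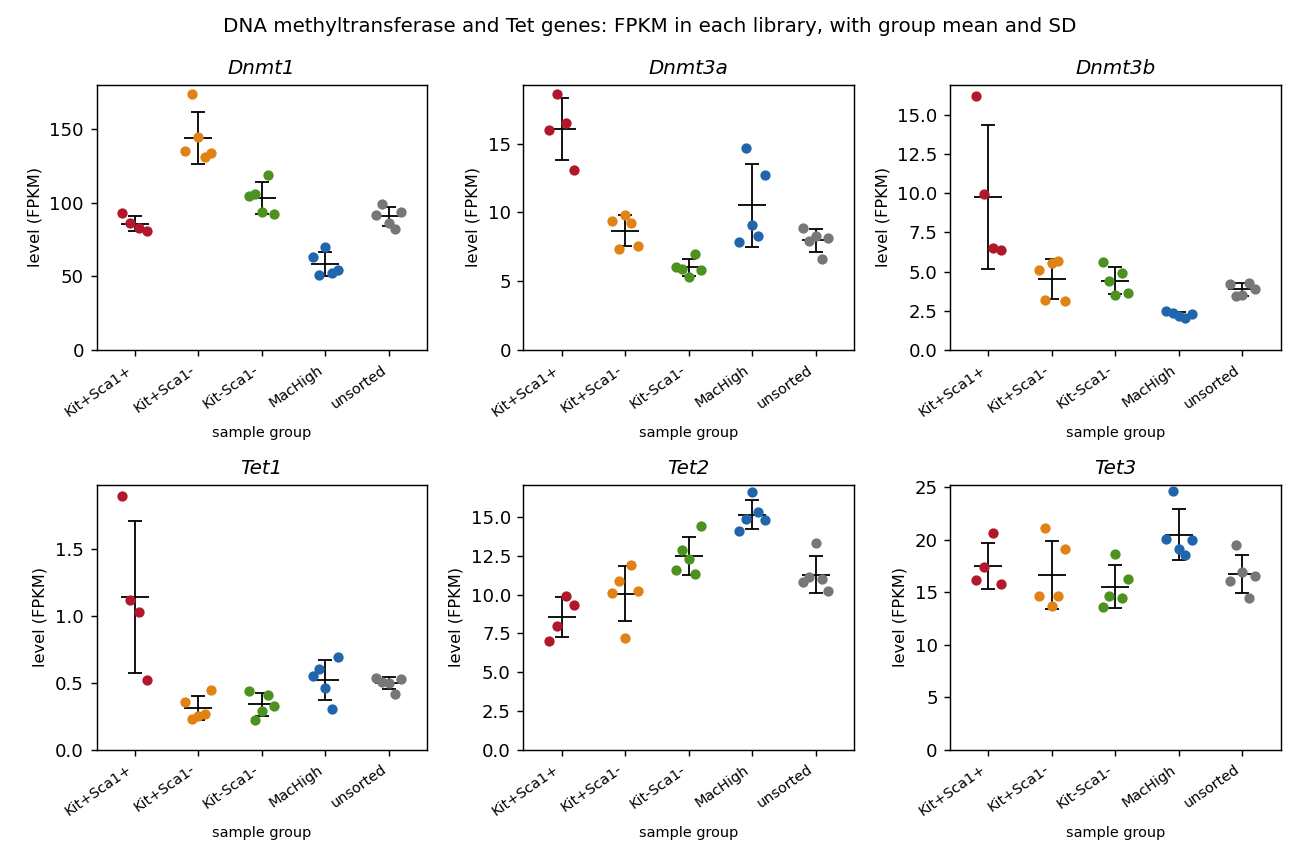
FPKM of the 3 DNA methyltransferase and 3 Tet genes (vertical axes) in the 5 sample groups (horizontal axes), with 1 point per library and the group mean and SD in black. Dnmt1 is highest in Kit+Sca1-, Dnmt3a, Dnmt3b and Tet1 are highest in Kit+Sca1+, and Tet2 is highest in MacHigh at 14.1 to 16.6 FPKM.

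Further genes of these pathways, a list of 45 of which 41 could be tested, were called about as often as all rows or less. Against MacHigh, 13 were higher and 7 lower in Kit+Sca1+ (48.8% of the 41, beside 46.0% of all rows), 20 higher and 3 lower in Kit+Sca1- (56.1% beside 62.8%), and 12 higher and 6 lower in Kit-Sca1- (43.9% beside 50.8%). Kit+Sca1+ had 3 higher and 16 lower than Kit+Sca1- (46.3% beside 55.2%). The widest range belonged to Mllt6 (AF17), a fusion partner of MLL in human leukaemia, with 14.8 ± 1.3 FPKM in Kit+Sca1+ cells, 2.41 ± 0.924 in Kit+Sca1- cells, 5.56 ± 1.37 in Kit-Sca1- cells, 11.0 ± 1.38 in MacHigh cells and 6.14 ± 0.931 in unsorted cells. Kit+Sca1+ exceeded Kit+Sca1- by 2.25 ± 0.17 (adjusted p = 2.62e-10). Uhrf1, which brings DNMT1 to newly copied DNA, had the same order of group means as Dnmt1, with 46.6 ± 2.73 FPKM in Kit+Sca1+ cells, 90.1 ± 10.7 in Kit+Sca1- cells, 66.8 ± 11.9 in Kit-Sca1- cells, 28.7 ± 3.44 in MacHigh cells and 55.3 ± 4.41 in unsorted cells. Dpy30, a core MLL subunit, had the same order as Wdr5, with 61.9 ± 3.02 FPKM in Kit+Sca1+ cells, 92.6 ± 15.8 in Kit+Sca1- cells, 83.2 ± 18.3 in Kit-Sca1- cells, 40 ± 5.33 in MacHigh cells and 66.8 ± 5.95 in unsorted cells.

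The remaining genes of that list with a range of 1 or more were highest in different fractions. Bcorl1, a partner of Pcgf1, averaged 3.55 ± 1.01 FPKM in Kit+Sca1+ cells, 9.1 ± 2.21 in Kit+Sca1- cells, 3.74 ± 1.01 in Kit-Sca1- cells and 2.8 ± 0.544 in MacHigh. Yaf2, a subunit of variant PRC1, averaged 13.5 ± 1.91 FPKM in Kit+Sca1+ cells, 28.3 ± 4.46 in Kit+Sca1- cells, 23.1 ± 1.82 in Kit-Sca1- cells and 18.7 ± 2.14 in MacHigh. Aff1 (AF4), another fusion partner of MLL, averaged 34.4 ± 8.32 FPKM in Kit+Sca1+ cells, 48.0 ± 8.28 in Kit+Sca1- cells, 21.3 ± 4.64 in Kit-Sca1- cells and 27.5 ± 4.21 in MacHigh. Each of these 3 was highest in Kit+Sca1-, as was the demethylase Kdm5b at 7.04 ± 1.15 FPKM, against 5.69 ± 0.578 in Kit+Sca1+ cells, 3.02 ± 0.944 in Kit-Sca1- cells and 3.22 ± 1.1 in MacHigh. The enzymes Idh1 and Idh2, which make the cofactor of the Tet enzymes, went apart. Idh1 averaged 32.1 ± 3.78 FPKM in Kit+Sca1+ cells and 67.4 ± 11.0 in MacHigh (-1.04 ± 0.19, adjusted p = 0.000112), and Idh2 averaged 99.9 ± 21.5 in Kit+Sca1+ cells and 36.4 ± 8.64 in MacHigh (1.44 ± 0.21, adjusted p = 7.43e-06).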

How the data were processed

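RNA-seq of 24 libraries was deposited as 1 table of FPKM per gene; the authors mapped reads to mm10 with TopHat2 2.0.4 and used Cuffdiff, per the submitters' processing notes. The Cuffdiff version, annotation and normalization are not given in the sources used here. FPKM hold no read counts, so depth is unknown beyond the relative depth, and no count test was run. Rows with at least 1 FPKM in at least 4 libraries (11599 of 23361) were tested as log2(FPKM + 1) with limma 3.58.1 (R 4.3.3, trended prior), all groups in 1 fit, with Benjamini-Hochberg adjustment over all rows tested and calls at 0.05. Means are given ± SD (n = 4 in Kit+Sca1+, 5 elsewhere). Tables and figures were made with Python 3.11.15, pandas 2.3.3 and matplotlib 3.10.9, and the fit was tested on simulated data. No library was identical to another. The members and lists were chosen with earlier results of these data known. Genes are named where sorted means differ by 1 or more and the F test passes, with their CBX, DNMT and other listed paralogues; others were chosen after their values were seen.

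Libraries share a prefix in their sample names, whose meaning is not stated. Deviations from group means correlated above 0.1 in 34 of 38 pairs of equal prefix, and in every pair of 6 of the 8 comparisons, but not in Kit+Sca1+ or Kit+Sca1- against MacHigh. Alternatives were a pseudocount of 0.1, no filter, quantile or equal-sum scaling, only the groups compared, library weights, floor values as missing, replicate blocks and leaving out libraries; leaving out Kit+Sca1+ libraries 1 and 2 was added after seeing the data. The row Mll2, whose symbol names different genes in different annotations, was left out.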

Additional observations from a re-analysis of the deposited data

Results flagged for a closer look

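In 12 of the 205 gene and group combinations examined, 1 library stood apart from the others of its group by Dixon's test, and chance gives about 1 in 20. In Kit+Sca1+ these were Rbbp4 in library 1 (81.1 FPKM, the others 68.8 to 70.7) and Phf19 in library 4 (9.16, the others 6.51 to 6.71). In Kit+Sca1- they were Ezh2 in library 4 (66.8, the others 74.2 to 76.7), Cbx6 in library 3 (5.21, the others 2.43 to 3.17) and Dot1l in library 2 (28.0, the others 19.3 to 21.8). In Kit-Sca1- they were Cbx7 in library 5 (4.53, the others 1.98 to 2.64) and Psip1 in library 4 (29.6, the others 20.8 to 23.3). In MacHigh they were Phc1 in library 5 (5.65, the others 4.27 to 4.49) and Tet3 in library 2 (24.7, the others 18.6 to 20.1). In unsorted cells they were Ezh1 in library 4 (11.4, the others 13.0 to 13.5), Jarid2 in library 2 (26.5, the others 28.3 to 29.0) and Tet2 in library 3 (13.3, the others 10.2 to 11.1).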

How the results depend on the processing

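Of the 166 calls on single genes 109 held under every alternative. Equal FPKM sums ended 34 of them, leaving out Kit+Sca1+ libraries 1 and 2 ended 24, quantile normalization and a fit of only the groups compared 12 each, and no filter 7. Tet3 in Kit+Sca1- against MacHigh turned from -0.30 to 0.02 (adjusted p = 0.903) at equal sums; the alternative changes the scale of whole libraries. Without Kit+Sca1+ libraries 1 and 2, 5 genes were called against unsorted cells, beside 12, and 9 higher and 11 lower against Kit+Sca1- and 8 higher and 9 lower against Kit-Sca1-. The counts of genes called under the other alternatives stayed within 1.5 times. Leaving out 1 library at a time gave 20 to 23 genes in Kit+Sca1+, 25 to 28 in Kit+Sca1- and 24 to 28 in Kit-Sca1- against MacHigh. With the sample name prefix as a replicate block 26, 29 and 29 genes were called in these 3 comparisons, and over all 8 comparisons 32 calls were gained and 1 lost (Tet2 in Kit-Sca1- against MacHigh, adjusted p = 0.0755). With the number in the titles as block, 23, 29 and 27 were called. In no comparison did every pair of equal number correlate above 0.1. In Kit+Sca1- against MacHigh the numbers and the prefixes gave the same 5 pairs. Depth is unknown, so differences of low genes such as Tet1 and Pcgf2 are the least certain.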
